A study of Homo sapiens with 6 samples.

Results

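Ribosome loading was described for the messages of HEK293T cells that had received only the vehicle DMSO, the baseline against which the study's inhibitor-treated cells stand. Members were the protein-coding genes with at least 5 TPM in the DMSO input library, which gave 8573 genes of 19725 protein-coding and 60461 listed genes. TPM is the length-scaled share of a library that a gene's transcripts take, with the same total in each library. For each member the ratio log2((footprint TPM + 1) / (input TPM + 1)) was taken and set relative to the median member. It is called relative loading here, so a value of 1 is 2-fold above the median member and a value of -1 is 2-fold below it. The filter used the input library alone, and the footprint values chose no member.

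Ribosome profiling sequences the stretch of message that a ribosome shields from nuclease, so footprints count ribosomes on a message while the input counts the message itself. Since both values are scaled by transcript length, a higher ratio of footprints to input means a denser cover of ribosomes along the message, which depends on how often ribosomes start, on how long each one stays and on how much of the transcript is coding. Well-studied controls of loading include the leader and the start codon context, upstream open reading frames, iron-responsive elements, and the 5′ terminal oligopyrimidine (TOP) tract of ribosomal protein messages, through which growth signalling acts.

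The groups were footprints of DMSO cells (1 library) and input of DMSO cells (1 library), and the same 2 kinds of library from cells labelled as treated with a PRMT1 inhibitor or with a PRMT4 inhibitor, 6 libraries in all. PRMT1 and PRMT4 are enzymes that methylate arginines; the labels give neither compound nor dose nor time. HEK293T is an established line derived from human embryonic kidney that expresses the large T antigen of SV40. Per the labels' protocols, RNase I digests were separated on sucrose gradients and the monosome fraction became the footprint library. The labels call every library ribosome-protected RNA, the inputs included, and the sources used here do not give how the input RNA was made.

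With 1 library a side there was no replicate, so no ratio has a measured error, no test was made, and every value describes these libraries alone. TPM keeps no depth, so the number of reads behind a value is unknown. Values above 0 were listed for 20823 genes in footprints and 30773 in input. Protein-coding genes took 74.3% of footprint TPM and 45.7% of input TPM, so all results are relative to the median member, whose own ratio was -0.05 before centring. Of the HEK293T markers, VIM had 197.89 TPM in footprints and 117.14 TPM in input, and KRT18 had 58.18 TPM and 37.44 TPM, while PAX2 was low at 1.13 TPM in footprints and 0.7 TPM in input. Of these 8 markers 6 were above 1 TPM in input. The 10 markers of other cell types found in the table stayed at or under 5.75 TPM in footprints and 3.26 TPM in input, and CD3E and MYH7 were at 0 in both. DMSO footprints were closest to the DMSO input among the 3 inputs (Pearson r of log2(TPM + 1) across members 0.855, against 0.845 and 0.828 for the inputs labelled PRMT1 and PRMT4 inhibitor). One check of the inhibitor labels gave a negative value. Across members, the footprint difference between the PRMT1 and PRMT4 labels and the input difference between the same labels had a Pearson r of -0.44. Matched pairs might be thought to move together, but the cause of the sign was not tested. Values of those libraries are therefore given by label only.

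Relative loading spread widely. Uncentred ratios ran from -6.67 to 4.87, with quartiles at -0.80 and 0.62 and a standard deviation of 1.07 across members. The lower end is the histone gene H4C12, listed at 0 TPM in footprints, where the ratio depends on the pseudocount. Footprint TPM exceeded input TPM for 4113 members, 48.0% of them. At least 2-fold above the median member were 1346 members (15.7%), and at least 2-fold below it were 1544 (18%). These shares are the background for every count given for a gene group. At 4-fold the counts were 216 above and 292 below. Of the 216, 155 had coding sequences under 1000 bases, against 62 of the 292, while 34.2% of all members were that short. The plot of footprints against input shows this spread with the groups at its edges.

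**Figure D1:**
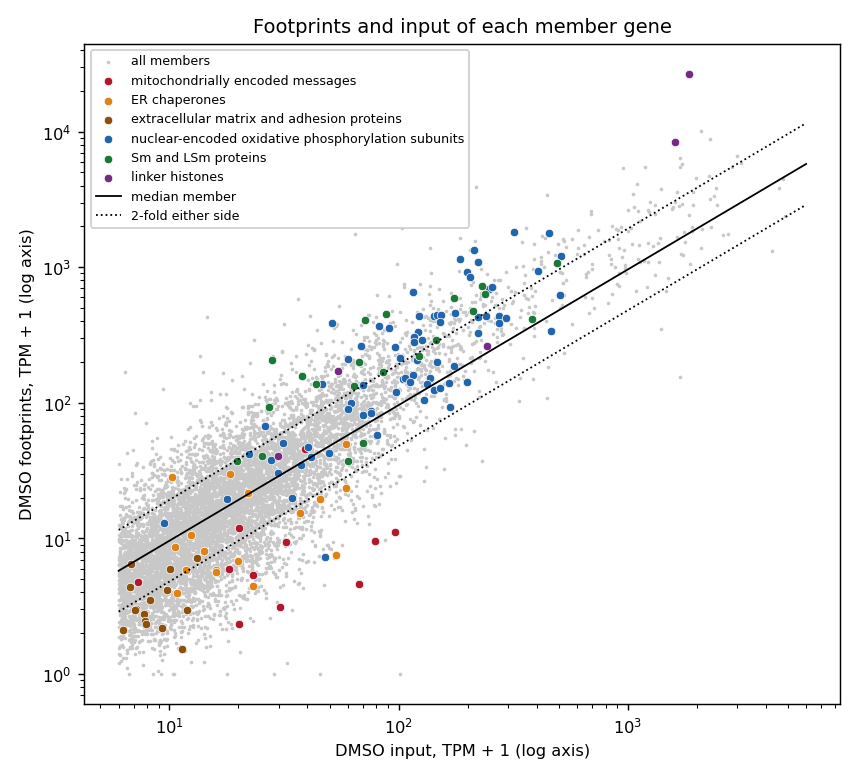
DMSO footprints (vertical axis, TPM + 1, log axis) against DMSO input (horizontal axis, TPM + 1, log axis), with 1 point per member gene, the median ratio as a solid line and 2-fold distances as dotted lines. Linker histones, Sm and LSm proteins and oxidative phosphorylation subunits lie mostly above the line, and mitochondrially encoded messages, ER chaperones and extracellular matrix proteins mostly below it.

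Among members with at least 20 TPM in input, the most loaded message was CHCHD3, a subunit of the complex that shapes mitochondrial cristae. CHCHD3 had 1768.84 TPM in footprints and 63.47 TPM in input, a relative loading of 4.83. PCNP, a nuclear protein rich in PEST sequence, followed with 1937.83 TPM in footprints and 102.97 TPM in input (4.28). C11orf58 had 3932.36 TPM in footprints and 216.98 TPM in input (4.23), and DUT, the dUTPase that keeps uracil out of DNA, had 584.27 TPM and 35.4 TPM (4.06). All 4 stand far outside the bulk of members. The linker histone H1-4 had the largest footprint value of all members, 26627 TPM, against 1858.06 TPM in input (3.89).

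Other messages among the 12 most loaded came from several pathways. MT1X, a metal-binding metallothionein, had 290.33 TPM in footprints and 22.4 TPM in input (3.69), and TCEAL4 had 380.96 TPM and 30.65 TPM (3.65). HNRNPH3, a splicing regulator, had 439.77 TPM in footprints and 39.93 TPM in input (3.48). RBX1, the RING subunit of cullin ubiquitin ligases, had 1057.33 TPM and 97.47 TPM (3.48). MTAP, which recycles methylthioadenosine, had 513.2 TPM in footprints and 53.85 TPM in input (3.28), and PDAP1 had 1635.84 TPM and 183.85 TPM (3.20). The proteins are small: none of the 12 coding sequences was longer than the 1038 bases of HNRNPH3, and that of MT1X had 183.

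In footprint TPM alone, the top of the table was held by chromatin and ribosome messages. After H1-4 came RPL38 with 10174.5 TPM in footprints and 2091.84 TPM in input, a relative loading of 2.34. NPM1, the nucleolar chaperone nucleophosmin, had 8873.68 TPM and 2286.91 TPM (2.01), and H1-2 had 8412.83 TPM and 1613.32 TPM (2.44). RACK1, a scaffold on the small ribosomal subunit, had 6602.34 TPM in footprints and 2987.97 TPM in input (1.2), and RPS4X had 6406.18 TPM and 1686.44 TPM (1.98). These 6 were abundant in the input too, where H1-2 was the lowest of them.

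At the other end, 9 members were listed at 0 in footprints. The one with the most input was H4C12, one of many near-identical histone H4 genes among which counting can move reads, at 0 TPM in footprints and 100.57 TPM in input. An unnamed locus (ENSG00000281348.1_4) had 0 TPM in footprints and 44.28 TPM in input. RPL36A-HNRNPH2, a readthrough locus that shares sequence with both its parts, had 0 TPM and 27.68 TPM. Each of these loci overlaps or repeats other sequence or has no name. A ratio for a value listed at 0 depends on the pseudocount, so no relative loading is given for them here.

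Several kinds of message made up most of the other 11 least loaded. The first were mitochondrially encoded, with MT-CO1 at 3.59 TPM in footprints and 66.22 TPM in input (-3.82), and MT-ND1 and MT-CO2 described further on. The second were membrane proteins: PGAP6 had 1.96 TPM in footprints and 33.3 TPM in input (-3.48), CLPTM1L had 3.33 TPM and 37.33 TPM (-3.09), and PKD1, the long polycystin receptor, had 1.48 TPM and 22.08 TPM (-3.16). The inner membrane protein HIGD1A, which acts on the respiratory chain, had 8.83 TPM in footprints and 86.36 TPM in input (-3.10). BIRC6, a very large inhibitor of apoptosis with a coding sequence of 14571 bases, had 1.6 TPM in footprints and 26.36 TPM in input (-3.34), and AIDA had 2.41 TPM and 28.58 TPM (-3.06).

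The third kind had named pseudogenes that also drew reads. RPL7 had 154.42 TPM in footprints and 1684.52 TPM in input (-3.38), while its 61 named pseudogenes summed to 662.76 TPM in footprints and 26.28 TPM in input. With those added to both libraries the relative loading of RPL7 was -1.01. MXRA7 had 3.55 TPM and 46.07 TPM (-3.32, and -1.22 with its pseudogene), and PKD1 reached -1.97 with its 6 pseudogenes. Footprints are short, and reads from a gene and its copies cannot be told apart in these values.

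Of the message features examined, coding length was the one that loading followed most closely. In 5 bins of equal size, members of the shortest, with 75 to 690 coding bases, had a median relative loading of 0.59, and 32.5% of them were 2-fold above the median member. The next bins had medians of 0.33, 0.00 and -0.29, and the longest, from 2421 to 22776 bases, had -0.73, with 38.7% 2-fold below. In finer bins the median was 0.81 for coding sequences of at most 300 bases (216 members) and -1.24 for those over 5000 bases (323 members). Across all 8573 members, Spearman's rho with coding length was -0.43, a description of genes within 1 pair of libraries. TPM is already scaled by length, but by the length of the transcript and not of its coding part.

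Input level was also related to loading, with medians of -0.35 in the lowest of 5 bins of input TPM and 0.50 in the highest, and a rho of 0.26. Input is the lower part of the ratio and set the filter, so this relation is not independent of the rule. Short and long messages were apart within every bin of input. In the lowest bin, coding sequences of 600 bases or less had a median of 0.35 (133 members) and those over 2400 bases had -0.75 (459 members). In the highest bin the medians were 0.88 (575 members) and -0.29 (135 members).

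**Figure D2:**
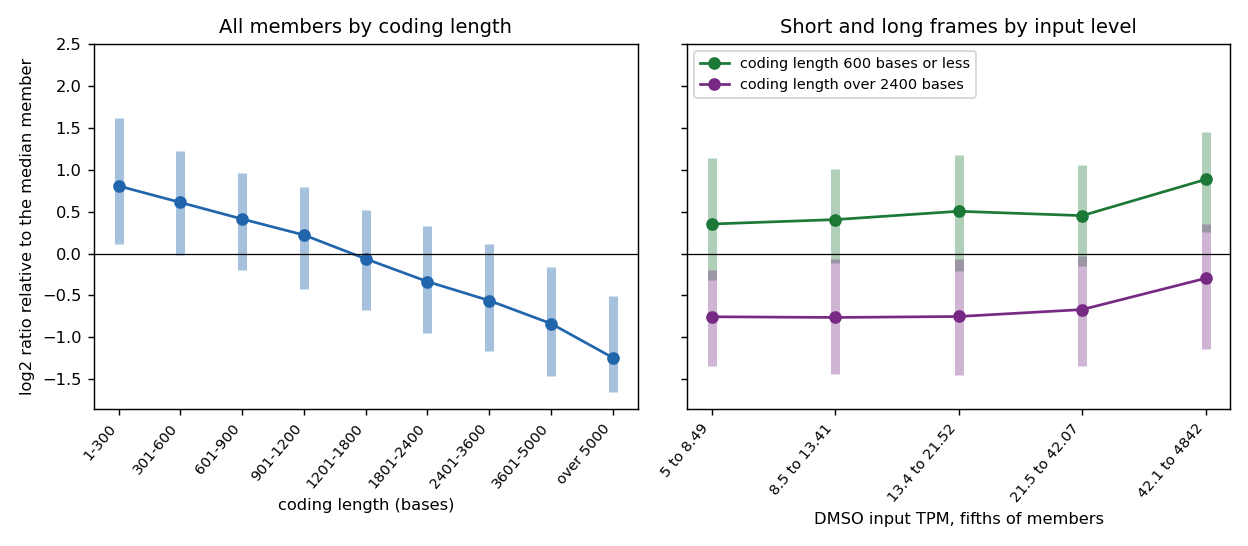
Relative loading (vertical axes, log2, 0 at the median member) by coding length in bases (left) and, for short and long coding sequences separately, by 5 equal bins of DMSO input TPM (right), where points are medians and bars run between quartiles. Medians step down from 0.81 in the shortest bin to -1.24 in the longest, and short sequences stay above long ones in each input bin.

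The leader and the start codon were read from reference transcripts. In the 3933 members without an ATG in the leader the median relative loading was 0.16, with 1 upstream ATG it was -0.05 (1800 members), with 2 or 3 it was -0.22 (1490 members), and with 4 or more it was -0.19 (1161 members). An upstream ATG can divert scanning ribosomes from the main start codon. Members with upstream ATGs also had longer coding sequences, with medians of 1419, 1474.5 and 1377 bases against 1245 bases in members without, so the part of coding length in this step was not tested. GC content (rho 0.03) and leader length (rho -0.04) hardly ordered members, and 3′ UTR length (rho -0.14) and the coding share of the transcript (rho -0.15) did so weakly.

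Around the start codon, a purine 3 bases before the ATG and a G just after it are the classical features of a strong context. Members with both had a median relative loading of 0.03 (3943 members) and those with the purine only had 0.04 (3314 members). Those with the G only had -0.14 (597 members) and those with neither had -0.08 (530 members), so the groups with and without the purine were at most 0.18 apart. Median coding lengths were 1311 and 1332 bases with the purine, against 1431 and 1422 bases without. The part of coding length in this distance was not tested. To set this beside single messages, start contexts are shown for the 4 most and 4 least loaded messages named above whose reference transcript has a leader, leaving out RPL7. Sequences are from GENCODE transcripts on GRCh38, 5′ to 3′ on the message strand, and capitals mark the base at -3, the start codon and the base after it.
CHCHD3: ggaAtcATGG
PCNP: gggAaaATGG
C11orf58: gcaAggATGA
DUT: gggGaaATGA
PGAP6: ggaGccATGG
BIRC6: cccCggATGG
MXRA7: ggcGcgATGG
PKD1: ctaAcgATGC
Each of the 4 most loaded messages had a purine at -3, and so did PGAP6, MXRA7 and PKD1 among the least loaded, while BIRC6 had a C. Their relative loading ran from 4.06 to 4.83 in the highest and from -3.48 to -3.16 in the lowest. With named pseudogenes added MXRA7 was at -1.22 and PKD1 at -1.97, so their place among the lowest is uncertain.

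Gene groups were described by 44 lists. Of these, 19 had a median at least 0.5 above the median member and 4 had one at least 0.5 below. Only 6 of the 23 kept that size and direction under each of the other settings tried that left enough members. The libraries of the inhibitor labels were among these settings. These 6 were linker histones, Sm and LSm proteins, polyadenylated histone variants, mitochondrially encoded messages, ER chaperones and messages with iron-responsive elements. No pseudogene was matched by name to any mitochondrially encoded or linker histone member. Settings that concern pseudogenes could therefore not act on those members, and copies named in another way were not counted. The plot of list members gives every value.

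**Figure D3:**
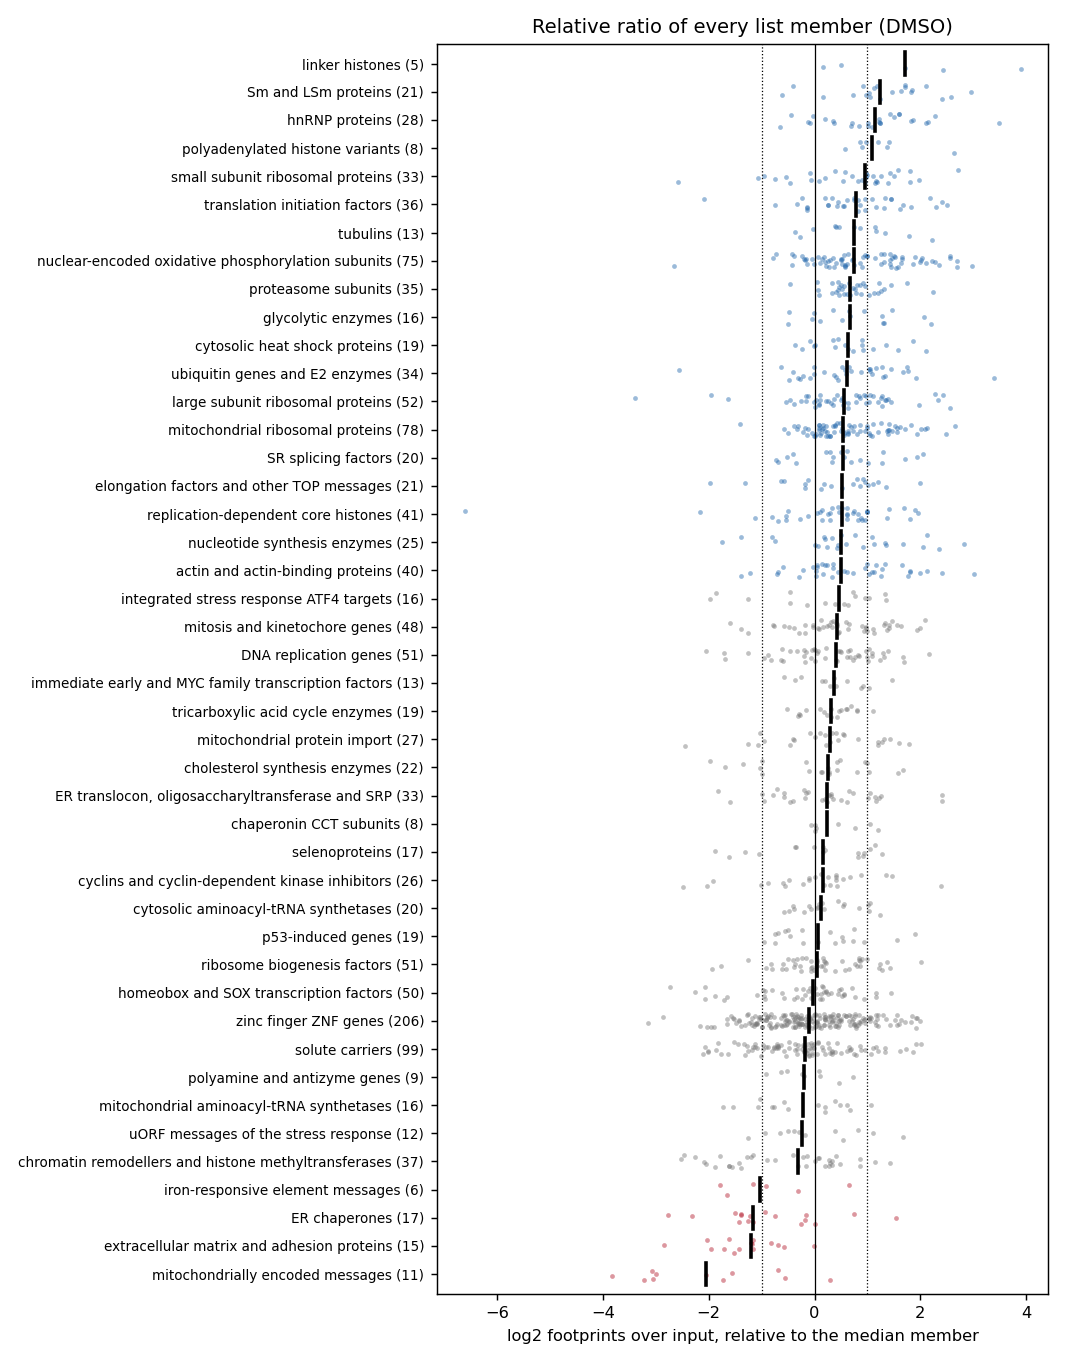
Relative loading (horizontal axis, log2, 0 at the median member) of every member of the 44 gene lists, with 1 point per gene, thick bars at list medians, dotted lines at 2-fold and the number of members in brackets. Medians run from 1.71 for linker histones to -2.05 for mitochondrially encoded messages, and most lists span more than 2-fold in each direction.

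Ribosomal proteins build the ribosome and carry TOP tracts at the start of their messages. Together, 85 ribosomal protein members took 17.5% of footprint TPM and 11.1% of input TPM. All protein-coding genes took 74.3% and 45.7%, so these shares alone do not set ribosomal proteins apart from other messages. The 33 small subunit members had a median relative loading of 0.96, with 13 at least 2-fold above the median member and 2 below. Large subunit members, 52 in all, had a median of 0.55, with 16 above and 3 below. RPS16 was highest, at 1167.42 TPM in footprints and 183.63 TPM in input (2.72), followed by RPLP1, a stalk protein, at 5420.29 TPM and 955.61 TPM (2.56). RPL26L1, a paralogue of RPL26, had 447.91 TPM in footprints and 85.77 TPM in input (2.43).

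Single ribosomal protein messages differed by far more than their medians did. RPS26 had 36.34 TPM in footprints and 229.4 TPM in input (-2.57), RPL23A had 346.68 TPM and 1391.71 TPM (-1.95), and RPSA had 666.64 TPM and 1461.3 TPM (-1.08). RPL41, which codes for the smallest ribosomal protein, had 1327.41 TPM in footprints and 4261.06 TPM in input (-1.63). These low values sit among genes with many processed copies. Named pseudogenes were listed for 80 of the 85 members and summed to 21045 TPM in footprints and 5816 TPM in input. With pseudogenes added, RPL41 moved to 0.60 and RPL23A to -0.24, while RPS26 stayed at -2.74, and the number 2-fold below was 3 in place of 5.

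**Figure D4:**
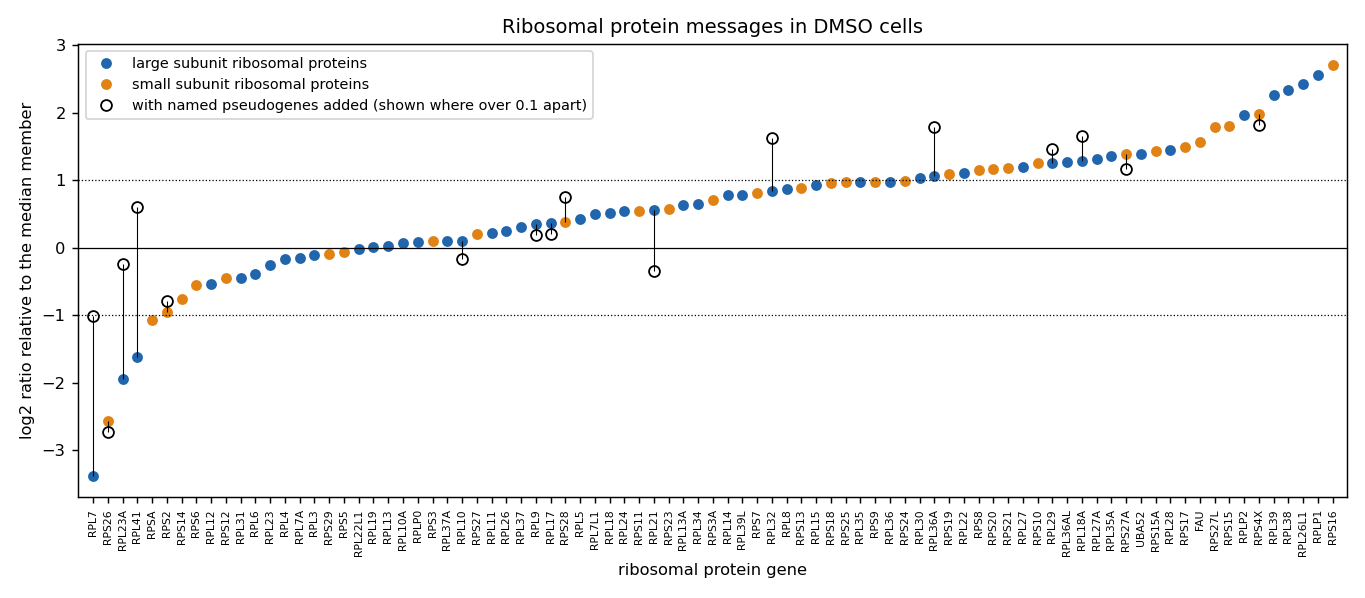
Relative loading (vertical axis, log2, 0 at the median member, dotted lines at 2-fold) of each of the 85 ribosomal protein genes in order, with open circles after named pseudogenes were added. Values run from -3.38 for RPL7 to 2.72 for RPS16, and RPL41, RPL23A and RPL7 move most toward the middle.

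After adjustment for GC content and transcript length, the medians were 0.04 for the large subunit and 0.08 for the small subunit. After a trend on input level was removed they were -0.24 and 0.08. With footprints scaled by coding length in place of transcript length, the medians were 0.86 and 0.60. The part of length and input level in the position of these lists was not tested further.

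TOP starts were looked for at RefSeq promoters (GRCh38.p14) as a C at the first transcribed base followed by 4 bases that are each C or T. Of 68 ribosomal protein members with a matched start, 44 (64.7%) had one, against 5.47% of 7054 other members and 4.07% of 35116 RefSeq starts. Among the ribosomal protein members, the median relative loading was 0.84 with a TOP start and 0.38 without, and quartiles overlapped, at 0.09 and 1.2 with and 0.02 and 1.21 without. Among other members the medians were 0.02 with and -0.00 without. The starts of the 4 most and 4 least loaded ribosomal protein genes with a matched start, leaving out RPL7, are given to show how both ends of the list begin. Each is 10 bases before and 20 bases from the start, 5′ to 3′ on the gene's strand, and capitals mark an unbroken run of C and T of at least 5 bases that begins with C at the start base.
RPS16, chr19:39435930-39435959, minus strand: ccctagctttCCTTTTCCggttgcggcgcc
RPLP1, chr15:69452808-69452837, plus strand: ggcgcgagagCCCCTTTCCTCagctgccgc
RPL26L1, chr5:172958719-172958748, plus strand: tccaggggtcggcgaacgaaacgcggagct
RPL38, chr17:74203668-74203697, plus strand: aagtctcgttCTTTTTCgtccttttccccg
RPS26, chr12:56041908-56041937, plus strand: acataacctcgattttcttccgccatccgg
RPL41, chr12:56116623-56116652, plus strand: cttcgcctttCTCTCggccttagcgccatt
RPSA, chr3:39406710-39406739, plus strand: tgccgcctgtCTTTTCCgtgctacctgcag
RPS14, chr5:150449720-150449749, minus strand: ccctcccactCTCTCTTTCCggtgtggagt
The run was present at both ends, in 3 of the 4 highest and 3 of the 4 lowest genes shown. RPL41, counted among the lowest, moved above the median member once named pseudogenes were added, so its place there is uncertain. Absence of the run at an annotated start says only that these letters are not in this window.

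Factors that serve the ribosome were less uniform. The 36 initiation factors had a median relative loading of 0.78, with 13 at least 2-fold above and 1 below. EIF1B had 73.21 TPM in footprints and 12.56 TPM in input (2.51) and EIF1, which guards start codon choice, had 932.67 TPM and 182.55 TPM (2.4). The repressor EIF4EBP2, which holds the cap-binding factor, was lowest at 3.39 TPM and 18.26 TPM (-2.08), and EIF2B5, a subunit of the eIF2 exchange factor, had 12.4 TPM and 22.41 TPM (-0.75). Elongation factors and other TOP messages (21 members) had a median of 0.51, which a trend on input level turned to -0.19. BTF3 had 1655.66 TPM in footprints and 432.9 TPM in input (1.99), and EIF3L had 107.85 TPM and 443.38 TPM (-1.97). Cytosolic aminoacyl-tRNA synthetases (20 members, 0.11) and ribosome biogenesis factors (51 members, 0.05) lay near the median member. Among the biogenesis factors NPM1 was highest, and NOP56, which helps guide ribosomal RNA methylation, was lowest at 48.3 TPM in footprints and 195.09 TPM in input (-1.94).

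The respiratory chain is built from proteins made in the cytosol and proteins made inside mitochondria on the organelle's own ribosomes. These 2 sets lay on opposite sides of the median member. The footprint library was the monosome fraction, and how well it recovered mitochondrial ribosomes was not tested. The 2 medians may therefore not compare like with like. Nuclear-encoded oxidative phosphorylation subunits, 75 members, had a median relative loading of 0.75, with 31 at least 2-fold above and 1 below. Mitochondrially encoded messages, 11 members, had a median of -2.05, with none 2-fold above and 8 below. The nuclear-encoded median was 0.31 once GC content and length were adjusted for. In the DMSO libraries the mitochondrially encoded median lay between -3.45 and -1.49 under the other processing choices tried.

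Of the mitochondrially encoded messages, 10 of 11 lay below the median member. In cytochrome oxidase, MT-CO1 was lowest, MT-CO2 had 10.11 TPM in footprints and 95.55 TPM in input (-3.06), and MT-CO3 had 8.56 TPM and 77.63 TPM (-2.99). Among complex I subunits, MT-ND1 had 2.11 TPM and 29.29 TPM (-3.23), and MT-ND4 had 1.35 TPM and 19.2 TPM (-3.05). MT-ND4L was at -2.05, MT-ND3 at -0.70 and MT-ND2 at -0.55, the last 2 within 2-fold of the median member. MT-CYB of complex III had 4.95 TPM in footprints and 17.1 TPM in input (-1.55). Of the ATP synthase pair, whose reading frames overlap, MT-ATP6 had 8.37 TPM and 31.21 TPM (-1.73), while MT-ATP8 was the exception with 44.88 TPM and 37.9 TPM (0.29). Summed over the 11, footprints held 102.99 TPM and input 421.51 TPM.

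Among nuclear-encoded subunits, members of a single complex reached both ends of the list. The membrane anchors of succinate dehydrogenase were the widest apart. SDHC had 385.88 TPM in footprints and 50.29 TPM in input (2.97) and SDHD had 6.26 TPM and 46.72 TPM (-2.66), at nearly equal input. UQCR10 of complex III had 1336.5 TPM in footprints and 212.62 TPM in input (2.70), and NDUFA7 of complex I had 92.73 TPM and 165.79 TPM (-0.78). Thus 62 of the 75 lay above the median member, and the low ones were few.

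Mitochondrial ribosomal proteins, all 78 of those in the table, had a median of 0.54, with 25 at least 2-fold above and 1 below. MRPL2 had 276.95 TPM in footprints and 44.63 TPM in input (2.66), and MRPL32 had 6.86 TPM and 20.65 TPM (-1.41). Their median was 0.20 once GC content and length were adjusted for. Protein import (27 members, 0.30) held TIMM13, a small translocase chaperone, at the top with 491.23 TPM in footprints and 146.87 TPM in input (1.79). The channel subunit TIMM23 was at the bottom with 7.3 TPM and 45.88 TPM (-2.44). Tricarboxylic acid cycle enzymes (19 members, 0.31) lay between -0.53 for IDH3B and 1.11 for MDH2. Mitochondrial aminoacyl-tRNA synthetases (16 members) had a median of -0.22.

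Messages of the secretory pathway are translated on ribosomes that dock at the endoplasmic reticulum (ER). ER chaperones, which fold the imported proteins, had a median relative loading of -1.16 over 17 members, with 9 at least 2-fold below and 1 above. FKBP10, a collagen-folding prolyl isomerase, was lowest at 6.5 TPM in footprints and 52.14 TPM in input (-2.77), and TXNDC5 had 3.46 TPM and 22.06 TPM (-2.32). FKBP2, a small relative of FKBP10, had 27.57 TPM and 9.24 TPM (1.53), and SDF2L1 had 28.82 TPM and 17.43 TPM (0.75). These chaperones were therefore spread over more than 4 log2 units, with 14 of 17 below the median member.

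Extracellular matrix and adhesion genes were low in input, and 15 of the 128 in the table passed the filter. All 15 lay below the median member, with a median of -1.19 and 11 at least 2-fold below. LAMC1, a laminin chain, had 0.53 TPM in footprints and 10.35 TPM in input (-2.84), and LAMA5 had 1.17 TPM and 8.25 TPM (-2.04). COL25A1 was closest to the median member at 5.54 TPM and 5.82 TPM (-0.01). Footprint values this low are sensitive to the pseudocount, and with all genes above 0 in input the list's median was -0.19. The median coding length of these members was 4827 bases, and with GC content and length adjusted for, the medians were -0.80 for this list and -0.71 for ER chaperones.

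The machinery that moves proteins into the ER did not share this position. ER translocon, oligosaccharyltransferase and signal recognition particle genes (33 members) had a median of 0.24, with 8 at least 2-fold above and 3 below. SRP14 had 394.15 TPM in footprints and 76.16 TPM in input (2.41), and OST4, among the shortest subunits with 111 coding bases, had 478.43 TPM and 92.7 TPM (2.41). STT3A, the large catalytic subunit of oligosaccharyltransferase, had 6.35 TPM and 26.18 TPM (-1.83). Solute carriers (99 members) had a median of -0.18, with 11 above and 20 below, between SLC39A3 at -2.11 and SLC25A4 at 2.01.

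Linker histones, which bind DNA between nucleosomes, had the highest median, 1.71 over 5 members. Beside H1-4 and H1-2, H1-10 had 170.72 TPM in footprints and 53.48 TPM in input (1.71), and H1-3 had 262.19 TPM and 242.78 TPM (0.17). All 5 lay above the median member, though only 3 were 2-fold above. Polyadenylated histone variants, made outside S phase, had a median of 1.09 over 8 members, from H2AX at 97.54 TPM and 67.79 TPM (0.57) to H3-3A at 745.96 TPM and 123.23 TPM (2.64).

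Replication-dependent core histones, whose messages end in a stem-loop and not in a poly(A) tail, had a lower median of 0.51 over 41 members, with 6 at least 2-fold above and 3 below. H2AC20 had 4099.95 TPM in footprints and 1097.18 TPM in input (1.96), H2BC5 had 2475.03 TPM and 692.43 TPM (1.89), and H4C15 had 2.23 TPM and 13.95 TPM (-2.16). These genes code for the same few proteins in near-identical sequence, so values of single copies are uncertain. Adjusting for GC content and length gave a median of -0.16.

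Messages for RNA-binding proteins of the nucleus were loaded well above the median member. Sm and LSm proteins, which form rings on spliceosomal and other small RNAs, had a median of 1.24 over 21 members, with 15 at least 2-fold above and none below. LSM3 had 207.41 TPM in footprints and 27.05 TPM in input (2.95), and SNRPF had 406.15 TPM and 70.19 TPM (2.57). At the low end, LSM1, part of the cytoplasmic decay ring, had 36.49 TPM and 58.9 TPM (-0.62), and LSM12, which has a pseudogene with more footprints than itself, had 49.63 TPM and 68.7 TPM (-0.41, and 1.34 with the pseudogene).

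The hnRNP proteins, which package and direct splicing of nuclear RNA, had a median of 1.15 over 28 members, with 17 above and none below. After HNRNPH3 came PCBP2 with 694.82 TPM in footprints and 148.97 TPM in input (2.27), and PTBP2, the neural splicing repressor, had 13.51 TPM and 19.41 TPM (-0.44). With a trend on input level removed the hnRNP median was 0.45. SR splicing factors and their kinases (20 members) had a median of 0.53, from SRSF12 at 2.59 TPM and 5.16 TPM (-0.72) to SRSF9 at 1689.23 TPM and 420.46 TPM (2.06).

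Proteasome subunits were the most even of the larger lists, with 34 of 35 members above the median member, a median of 0.68 and 9 at least 2-fold above. The short SEM1 had 464.77 TPM in footprints and 100.88 TPM in input (2.25), PSMD10 had 205.08 TPM and 62.43 TPM (1.75), and PSMD3 alone was below, at 54.41 TPM and 77.84 TPM (-0.45). Cytosolic heat shock proteins (19 members) had a median of 0.64, with HSPB1 at 50.28 TPM and 11.31 TPM (2.11) and the abundant HSPA8 at 635.65 TPM and 851.78 TPM (-0.37). Ubiquitin genes and E2 enzymes (34 members) had a median of 0.62, with 14 at least 2-fold above and 1 below. UBE2L3 was lowest, with 4.98 TPM in footprints and 35.87 TPM in input (-2.57). The 8 chaperonin subunits, which occur in equal number in the complex, lay between -0.07 for CCT7 and 1.2 for CCT3.

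Metabolic enzymes and the cytoskeleton gave medians between 0.26 and 0.75. Glycolytic enzymes (16 members, 0.66) ranged from HK1 at 11.85 TPM in footprints and 17.89 TPM in input (-0.50) to LDHB at 1527.46 TPM and 345.7 TPM (2.19). Nucleotide synthesis enzymes (25 members, 0.51) held ATIC, which closes purine synthesis, at 356.59 TPM and 51.36 TPM (2.83). The long pyrimidine enzyme CAD had 5.69 TPM and 22.25 TPM (-1.74). Cholesterol synthesis enzymes (22 members) had a median of 0.26, with 3 at least 2-fold above and 4 below. Tubulins (13 members) had a median of 0.75 and actin and actin-binding proteins (40 members) one of 0.51. There CFL1, the actin-severing cofilin, had 3437.05 TPM and 442.43 TPM (3.01), and TPM2, a tropomyosin, had 1.23 TPM and 5.05 TPM (-1.39).

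Messages known for translational control were taken as further lists. Iron-responsive elements bind iron regulatory proteins, which in iron-poor cells hold back ferritin translation and stabilise the transferrin receptor message. The 6 members had a median of -1.04, with 3 at least 2-fold below. The ferritin chains differed: FTH1 had 805.32 TPM in footprints and 534.38 TPM in input (0.65), and FTL had 102.13 TPM and 335.66 TPM (-1.65). TFRC, whose elements lie in the 3′ UTR, was lowest at 9.65 TPM and 37.17 TPM (-1.79), SLC11A2 had 4.62 TPM and 12.11 TPM (-1.17), and CDC14A had 2.75 TPM and 6.31 TPM (-0.91). FTH1 alone lay above the median member, and the other 5 lay below it.

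Upstream open reading frames of the integrated stress response keep loading of the main frame low until stress. These 12 messages had a median of -0.24, with 2 at least 2-fold above and 1 below. The direction was not stable, with medians of 0.53 among members of at least 20 TPM in input and 0.26 with footprints per coding length. UCP2 had 123.19 TPM in footprints and 39.74 TPM in input (1.66), SLC35A4, whose own upstream frame is translated, had 94.1 TPM and 45.2 TPM (1.1), and CEBPG had 5.42 TPM and 14.94 TPM (-1.26). PPP1R15B had 6.21 TPM and 13.31 TPM (-0.93). ATF4, chosen here after its value was seen, had 457.16 TPM and 364.83 TPM (0.38). A gene's footprint TPM covers its upstream frames as well as its main frame, and the table does not separate them. ATF4 targets (16 members) had a median of 0.47, polyamine and antizyme genes (9 members) one of -0.19 and selenoproteins (17 members) one of 0.16.

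The same ratio was taken from the libraries of the other labels as other conditions, not as replicates. Across members, Pearson r between the DMSO ratio and theirs was 0.941 for the PRMT1 label and 0.947 for the PRMT4 label, and the median absolute difference was 0.218 and 0.234. Of the 1346 members 2-fold above in DMSO, 1102 were so under the PRMT1 label and 1148 under the PRMT4 label. Of the 1544 below, 1125 and 1350 were so. Some lists moved between labels. ATF4 targets had medians of 0.47 in DMSO, 0.83 under the PRMT1 label and -0.32 under the PRMT4 label. ER chaperones had medians of -1.16 in DMSO, -0.61 under the PRMT1 label and -1.37 under the PRMT4 label. Extracellular matrix and adhesion genes had -1.19, -0.73 and -2.07, and mitochondrially encoded messages had -2.05, -1.29 and -2.06. Among single messages, CHCHD3 was at 4.83, 5.87 and 5.31, and PKD1 at -3.16, -1.34 and -4.38.

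**Figure D5:**
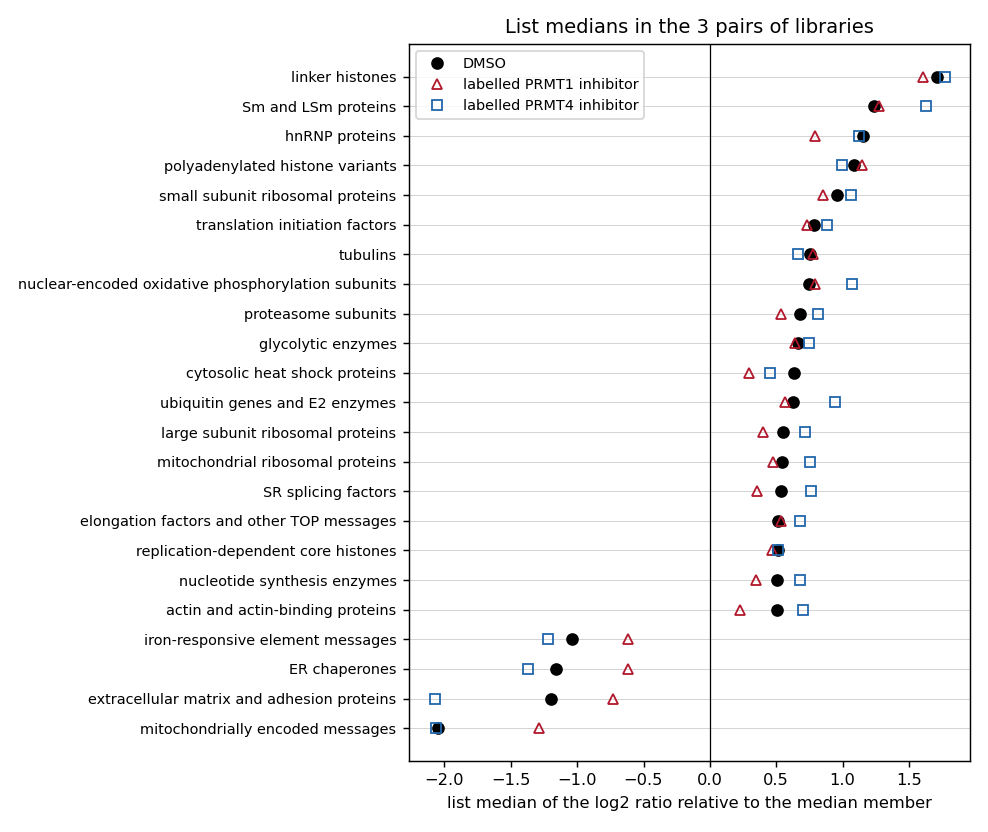
Median relative loading (horizontal axis, log2, 0 at each pair's own median member) of the 23 lists at least 0.5 from the median member in DMSO, in DMSO libraries (filled circles) and in those labelled PRMT1 inhibitor (triangles) and PRMT4 inhibitor (squares). Each list lies on the same side of 0 in all 3 pairs, and ER chaperones, matrix and mitochondrially encoded messages are farther from 0 in DMSO than under the PRMT1 label.

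RNAs of other annotated types serve as a contrast. This set is every gene annotated as a type other than protein-coding. Pseudogenes were not left out of it, and reads of coding genes can fall on them, so it is no clean non-coding set. At the same input filter there were 823, with a median relative value of -0.74 and quartiles at -2.24 and 0.35, and 52 were listed at 0 in footprints. Members were therefore higher at the median, but the upper quartile of these RNAs lay above 0. Processed pseudogenes took 4.74% of footprint TPM and 1.12% of input TPM. Members with a pseudogene named after them (1631) had a median relative loading of 0.34, against -0.06 for the rest. The cause of this difference was not tested, and these groups were not matched for input level or coding length. With named pseudogenes added, 1346 members were 2-fold above and 1540 below, against 1346 and 1544 without. Reads of a gene and its copies cannot be told apart, so single values of such genes stay uncertain.

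Footprint values of the genes nearest the filter differed. In the lowest of the 5 bins of input, from 5 to 8.49 TPM, 24.7% of members were 2-fold below the median member and 9.2% above it. Just inside it, at 5 TPM in input, RGCC had 8.84 TPM in footprints, USP42 2.49 TPM and ABRAXAS1 11.64 TPM. Just outside, at 4.99 TPM in input, EEA1 had 11.45 TPM in footprints, SOCS2 6.37 TPM and RILP 5.26 TPM.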

How the data were processed

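The deposited table held TPM as the authors computed it, 1 column per library, to 2 decimals. The submitters' processing notes list RSEM 1.2.22, STAR 2.4.2a, Bowtie 1.1.2 and cutadapt 1.18, and the build GRCh37.p13, with no role or order. The 41 copies from the Y pseudoautosomal region, all at 0, were dropped. GENCODE release 29, on a later build, gave names, types (56157 genes matched) and lengths, and RefSeq GRCh38.p14 gave start sequences for 7122 members. A fold change is on the log2(TPM + 1) scale, which understates low genes. Members and the 44 lists were chosen with earlier results of these data known. Named were, among members with 20 TPM or more in input and a symbol that is neither clone-based nor a readthrough, the 12 highest and 12 lowest ratios, then the 6 largest footprint values, 3 listed at 0, 3 either side of the filter, and up to 2 highest and 2 lowest members of a list, all where it has 5 or fewer. Any other gene named was picked with its value in view, and some genes that the rule names are not reported here. A list was called shifted at 0.5 (log2) from the median member, a convention and no error rate. A pseudogene was assigned to the gene whose symbol, P and a number form its name. Python 3.11.15, numpy 2.4.6, pandas 2.3.3, statsmodels 0.14.6 and matplotlib 3.10.9 were used, and the ratio was tested on simulated data. Alternatives changed the pseudocount, filters, scaling, length basis, centring, and trends on input level (lowess), GC content and length.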

Additional observations from a re-analysis of the deposited data

Results flagged for a closer look

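Some regulated lists lay on one side of 0 in DMSO and on the other in the libraries of an inhibitor label, in medians relative to each pair's own median member. The difference was not tested in any of them, since each pair is 1 library of each kind. Messages with upstream open reading frames of the integrated stress response had a median of -0.24 in DMSO and 0.41 under the PRMT1 label. ATF4 targets had 0.47 in DMSO and -0.32 under the PRMT4 label. Polyamine and antizyme genes had -0.19 in DMSO and 0.44 under the PRMT4 label. The label check given above touches each of these values.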

How the results depend on the processing

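In all, 15 other settings and 2 more that concern pseudogenes, chosen after seeing the data, were applied to the counts of members 2-fold away and to the 44 list medians. No paired analysis was possible because each group holds 1 library and no test was made. Of the 23 lists at least 0.5 away from the median member, those whose median crossed 0 were at -0.24 (large subunit), -0.19 (other TOP messages) and -0.17 (core histones) after a trend on input level was removed, and -0.16 (core histones) after adjustment for GC content and length. Of the 21 lists closer to the median member, 18 crossed 0 in at least 1 setting, such as chaperonin subunits at -0.46 and protein import at -0.05 with that trend removed, and ribosome biogenesis at -0.39 per coding length. In 12 of the 21 the median was at least 0.5 away in some setting, among them chromatin remodellers at -1.05, mitochondrial synthetases at -0.71 and protein import at 0.62 per coding length, immediate early factors at 0.69 with the trend removed, and selenoproteins at 0.59 with input of 20 TPM or more. The values that follow are of the 23 lists, where the median was no longer 0.5 away but kept its direction. With the trend on input level removed they were 0.076 (small subunit), 0.20 (initiation factors), 0.30 (mitochondrial ribosomal), 0.28 (oxidative phosphorylation), 0.10 (glycolysis), 0.29 (nucleotide synthesis), 0.30 (proteasome), 0.13 (heat shock), 0.45 (hnRNP), 0.094 (SR factors), 0.42 (ubiquitin), 0.48 (tubulins) and 0.25 (actin). With the adjustment for GC content and length they were 0.037 (large subunit), 0.079 (small subunit), 0.49 (other TOP messages), 0.20 (mitochondrial ribosomal), 0.31 (oxidative phosphorylation), 0.42 (proteasome) and 0.39 (SR factors). With footprints per coding length 2138 members were 2-fold above, and the medians were 0.45 (other TOP messages), 0.32 (nucleotide synthesis), 0.46 (proteasome), 0.27 (heat shock), 0.011 (core histones) and 0.36 (tubulins). With input of 20 TPM or more, where fewer and more abundant genes set the median member, 522 were above and 660 below, and the medians were 0.26 (large subunit), 0.23 (other TOP messages), 0.26 (mitochondrial ribosomal), 0.38 (glycolysis), 0.39 (nucleotide synthesis), 0.39 (proteasome), 0.36 (heat shock), 0.37 (SR factors), 0.32 (core histones) and 0.44 (actin). With both libraries at 5 TPM or more, 863 were below, since low footprint values were left out, and the medians were 0.31, 0.27, 0.30, 0.42, 0.31, 0.43, 0.39, 0.32 and 0.37 for the same first 9 lists, 0.40 for ubiquitin and 0.34 for actin. With a mean of 5 TPM or more they were 0.41 (large subunit), 0.37 (other TOP messages), 0.40 (mitochondrial ribosomal), 0.36 (nucleotide synthesis), 0.49 (heat shock), 0.42 (SR factors), 0.42 (core histones), 0.48 (ubiquitin) and 0.41 (actin). With any input above 0 they were -0.19 (matrix and adhesion), 0.33 (core histones), 0.47 (tubulins) and 0.47 (actin). With a pseudocount of 5, 707 were below, and the medians were 0.50 (other TOP messages, mitochondrial ribosomal), 0.47 (nucleotide synthesis, SR factors, actin) and 0.495 (core histones). Rescaled over protein-coding genes, they were 0.49 (other TOP messages, nucleotide synthesis, core histones, actin). Without centring, they were 0.50 (large subunit), 0.46 (other TOP messages, core histones), 0.49 (mitochondrial ribosomal), 0.45 (nucleotide synthesis, actin) and 0.48 (SR factors). Under the PRMT1 label they were 0.40 (large subunit), 0.47 (mitochondrial ribosomal, core histones), 0.35 (nucleotide synthesis), 0.30 (heat shock), 0.36 (SR factors) and 0.23 (actin), and under the PRMT4 label 0.45 (heat shock). Without members that have a named pseudogene they were 0.29 (glycolysis), 0.39 (nucleotide synthesis), 0.40 (SR factors) and 0.23 (actin), and fewer than 5 small subunit and chaperonin members were then left. The cause was not tested except where the choice itself removed genes. Each list median with fewer than 10 members rests on few genes, depth is unknown, and no error can be put on any of these values.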

Other observations

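Genes of the cell cycle lay somewhat above the median member in DMSO. Mitosis and kinetochore genes (48 members) had a median relative loading of 0.43, with 13 at least 2-fold above and 3 below, and DNA replication genes (51 members) had 0.41, with 11 above and 4 below. Under the other settings the mitosis median lay between 0.16 and 0.53. The replication median lay between 0.07 and 0.51 in the DMSO libraries and was -0.04 under the PRMT1 label. The spindle checkpoint kinase TTK had 71.07 TPM in footprints and 16.71 TPM in input (2.08), and AURKB had 408.37 TPM and 106.22 TPM (1.99). CKAP5, a long microtubule polymerase, had 11.11 TPM and 36.82 TPM (-1.59), and the cyclin-dependent kinase CDK1 had 19.32 TPM and 54.16 TPM (-1.39). Primase subunit PRIM2 had 37.46 TPM and 7.9 TPM (2.17), while POLA1, the catalytic subunit that works with it, had 4.4 TPM and 22.31 TPM (-2.06). Cyclins and their kinase inhibitors (26 members, 0.15) ran from CCNY at 4.52 TPM and 31.19 TPM (-2.49) to CCNK at 115.45 TPM and 22 TPM (2.39).

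Regulators of transcription differed by family. Zinc finger genes (206 members) had a median of -0.10, with 26 at least 2-fold above and 33 below, and ZFP91 was lowest at 0.62 TPM in footprints and 13.99 TPM in input (-3.16). Homeobox and SOX factors (50 members) had -0.04, with 3 above and 8 below, and HOXA6 was lowest at 3.54 TPM and 30.42 TPM (-2.74). Immediate early and MYC family factors (13 members) had 0.38, with MYC highest at 456.47 TPM and 171.23 TPM (1.46). Chromatin remodellers and histone methyltransferases (37 members) had -0.31, with 2 above and 15 below, and SETD2 was lowest at 0.88 TPM and 10.21 TPM (-2.52). Their median coding length was 5736 bases, and with GC content and length adjusted for, the median was 0.14. Genes induced by p53 (19 members) had 0.07, from TNFRSF10B at 6.59 TPM and 14.34 TPM (-0.96) to BTG2 at 20.99 TPM and 5.09 TPM (1.91).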
